A study of Mus musculus with 2 samples.

Results

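Of the 3134 genes in the table, 92 encode proteins of vesicle and membrane trafficking. They were chosen by symbol, as the Rab, Arf, Vps, Snx, Sec, Cop, Ap, Stx, Vamp, Vap, Dennd, Tbc1d, Exoc, Trapp, Golg, Clt, Cog and Ehd families, a pattern that uses no measured value. A gene also had to be in the table. The symbol rule also took in genes that act beside vesicle traffic, such as the Sec61 channel of the endoplasmic reticulum (ER). The data came from enhanced crosslinking and immunoprecipitation (eCLIP), in which ultraviolet light fixes proteins to RNA before precipitation. The cells were NIH3T3, an established line of mouse fibroblasts. An antibody against HP1 alpha, a heterochromatin protein, was used for 1 library, and no antibody was used for the other, labelled input. In each library RNA was taken from a membrane region above the HP1 alpha band.

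Traffic between membranes runs in cycles. Coats such as COPI, COPII and clathrin shape a vesicle and load its cargo, with small GTPases of the Arf and Sar families starting their assembly. Rab GTPases mark the vesicle and its target, tethers hold the membranes together, and SNARE proteins fuse them. Endosomal complexes such as retromer and the sorting nexins return cargo to the Golgi and the surface. In fibroblasts this machinery carries collagen and other matrix proteins out of the cell, and its genes are expressed in nearly every cell type.

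Values are read counts per gene, and 1 library per group means that no difference has a replicate check. No test was made. The listed counts added up to 513965 for HP1 alpha and 830031 for the input. Counts were taken as shares of the listed total, and the HP1 alpha share over the input share is called the ratio. Its 95% interval is exact (Clopper-Pearson) and covers counting error only. The ratios compare these libraries and not the conditions. A gene was called higher or lower where the ratio passed 2-fold and the interval excluded 1. All genes in the table had at least 100 counts in 1 of the libraries. Of the fibroblast markers, 9 of 12 were found among the listed genes, whereas 0 of 5 epithelial, 0 of 4 endothelial and 0 of 4 blood markers were.

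The trafficking genes together held 11707 HP1 alpha counts and 19657 input counts. This is 2.28% and 2.37% of the listed counts, a ratio of 0.962 (0.940 to 0.984). Per member, HP1 alpha counts ranged from 30 to 750 with a median of 95, and input counts ranged from 100 to 810 with a median of 172. The counting precision was moderate, since the upper bound of a member's interval was 1.66 times its lower bound in the median case and 2.36 times at most.

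The median ratio of the 92 genes was 0.873. The median of all listed genes was 0.865. A ratio above 1 was found for 24 members (26.1%), against 30.9% of all listed genes. The interval lay above 1 for 10 members (10.9%), where the share of all listed genes was 15.4%, and below 1 for 30 members (32.6%), where it was 32.6%. At 2-fold, 3 members were called higher (Snx29, Rab30 and Vapb), or 3.26% of them against 2.36% of all listed genes. Another 2 were called lower (Snx5 and Dennd5b), or 2.17% against 0.83%. With so few calls these shares lie near those of all genes.

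The ratio has no fixed zero point, because it depends on how the libraries are scaled. Leaving the 10 most abundant genes out of the totals raised the median log2 ratio of all genes by 0.010. TMM scaling (trimmed mean of M-values, from edgeR) raised the median log2 ratio of all genes by 0.20. With it, 4 members were called higher and 0 lower, where 4.05% and 0.287% of all genes were. The interval then lay above 1 for 18 members and below 1 for 12, where the shares of all genes were 23.3% and 13.7%. A ratio near 0.87 is therefore that of the typical gene in this table, and statements on direction below give the TMM result where it differs.

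The listing limit also bears on the low ratios. Of the 92 members, 49 had fewer than 100 counts in the HP1 alpha library and were listed through their input count alone, and 0 had fewer than 100 in the input. A gene with an HP1 alpha count of at most 61 could be listed only with a ratio below 1. That applied to 20 members, 9 of them with an interval below 1. Of all 30 members with intervals below 1, 19 were listed through the input alone. With at least 100 counts required in both libraries, 10 intervals lay above 1 and 11 below.

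**Figure D1:**
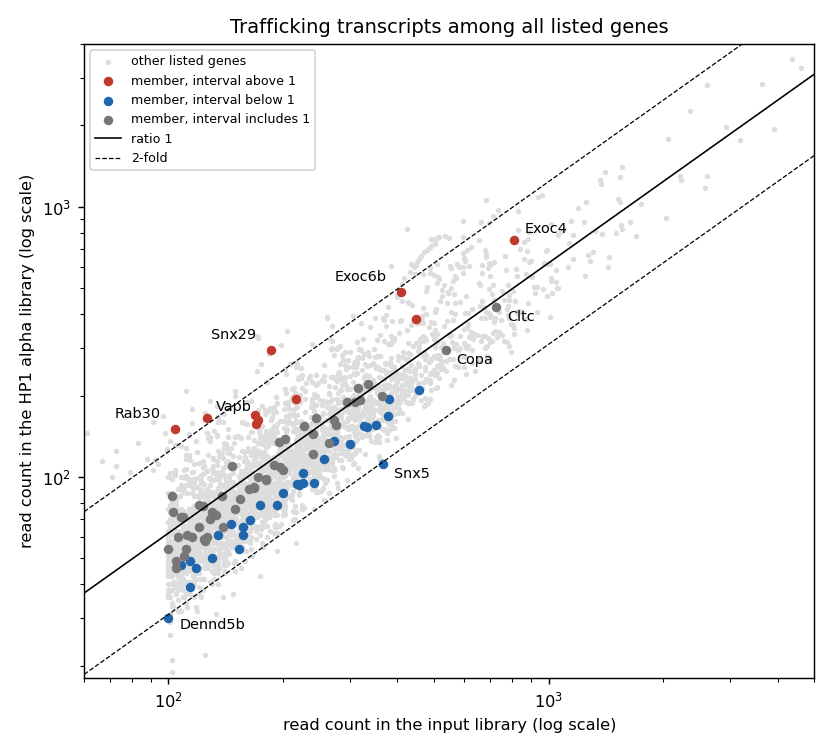
Read counts of each listed gene in the input (horizontal) and the HP1 alpha library (vertical), both on log scales, with trafficking genes coloured by their 95% counting interval and other genes in grey. Most members lie below the line of ratio 1. Snx29, Rab30 and Vapb lie above the upper 2-fold line, and Snx5 and Dennd5b lie at or just under the lower one.

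Snx29, which encodes a sorting nexin with a membrane-binding PX domain, had the highest ratio of the members. Its 294 HP1 alpha counts stood against 186 input counts, a ratio of 2.55 (2.12 to 3.08), which ranked 12 among the 3134 genes. Snx29 (ENSMUSG00000071669.10) spans 436 kb of chromosome 16 (11322861 to 11759095, build GRCm38.p6) without overlap with another listed gene. Rab30, the gene of a Rab GTPase of the Golgi, gave 150 and 104 counts, hence a ratio of 2.33 (1.80 to 3.02). It is on chromosome 7 (92741637 to 92844535). Vapb encodes an ER membrane protein that binds partner proteins at contacts with other organelles. Its counts were 165 and 126, its ratio 2.11 (1.67 to 2.69), with its position on chromosome 2 (173737571 to 173784336). All 3 had the larger raw count in the smaller, HP1 alpha library. In the authors' deposited table, which scales by total mapped reads, the folds of Snx29, Rab30 and Vapb are 2.63, 2.40 and 2.18. Exoc6b was just under 2-fold and was called higher with TMM factors.

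At the other end, Snx5 had only 112 HP1 alpha counts for 367 input counts, a ratio of 0.493 (0.395 to 0.611). Snx5 encodes a sorting nexin with a BAR domain that bends endosomal membrane into recycling tubules. Its gene body is on chromosome 2 (144250123 to 144270902). Both counts are above the listing limit, that of HP1 alpha narrowly. Dennd5b, a DENN domain gene whose family activates Rab GTPases, had 30 counts against 100, a ratio of 0.484 (0.311 to 0.735). Its input count is exactly at the listing limit. Neither gene passed 2-fold under TMM scaling, where Snx5 had 0.565 (0.453 to 0.700) and Dennd5b had 0.556 (0.357 to 0.843). Both intervals still lay below 1.

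Sequence at the start of 4 genes is shown because they frame the contrast between members, Snx29 and Dennd5b as the highest and the lowest ratio and Vapb and Rab22a as neighbours in the genome that were both above 1. Each run is taken from the 250 bases before the start that RefSeq's promoter table gives (build GRCm38.p6). It is written 5′ to 3′ on the gene's strand with every CG pair in capitals. Table starts can lie inside a gene's annotated span, and bases inside the span were left out (43 for Snx29 and 9 for Rab22a). The printed runs are chr16:11322654-11322860 (plus strand) for Snx29, chr2:173737321-173737570 (plus) for Vapb, chr2:173659595-173659835 (plus) for Rab22a and chr6:149101681-149101930 (minus) for Dennd5b.
Snx29: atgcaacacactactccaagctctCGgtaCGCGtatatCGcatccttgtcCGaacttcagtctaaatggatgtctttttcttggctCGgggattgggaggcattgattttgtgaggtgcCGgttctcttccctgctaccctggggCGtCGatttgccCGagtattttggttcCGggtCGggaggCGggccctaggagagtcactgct
Vapb: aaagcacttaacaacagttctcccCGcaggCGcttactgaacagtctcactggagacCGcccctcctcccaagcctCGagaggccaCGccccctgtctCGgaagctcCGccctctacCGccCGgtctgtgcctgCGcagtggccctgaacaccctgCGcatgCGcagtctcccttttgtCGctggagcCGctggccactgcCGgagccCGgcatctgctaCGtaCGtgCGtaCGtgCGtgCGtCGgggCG
Rab22a: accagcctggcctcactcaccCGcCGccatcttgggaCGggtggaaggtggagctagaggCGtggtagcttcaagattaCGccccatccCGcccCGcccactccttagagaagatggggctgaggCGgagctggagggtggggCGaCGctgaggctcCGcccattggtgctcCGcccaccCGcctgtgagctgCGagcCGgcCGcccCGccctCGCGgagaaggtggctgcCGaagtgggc
Dennd5b: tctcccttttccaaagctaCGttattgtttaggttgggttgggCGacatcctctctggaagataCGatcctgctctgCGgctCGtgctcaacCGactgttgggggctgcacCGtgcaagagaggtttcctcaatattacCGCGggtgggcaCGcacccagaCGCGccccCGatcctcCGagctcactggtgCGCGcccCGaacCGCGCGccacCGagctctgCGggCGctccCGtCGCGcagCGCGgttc
The printed runs held 13 CG pairs for Snx29, 24 for Vapb, 20 for Rab22a and 28 for Dennd5b. Over whole windows of 250 bases, some of which reach into a span, 81 of the 92 members matched by symbol, and 70 of these (86.4%) held at least 10 CG pairs. The share was 82.9% over the 2550 listed genes with a window and 38.2% over all 27025 genes in the RefSeq table. The median was 16 CG pairs for the members with intervals above 1 (9 with a window) and 20.5 for those with intervals below 1 (26 with a window). CG-rich starts were thus a property of listed genes in general. These counts describe the windows and say nothing of binding.

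The Rab GTPases switch between an active and an inactive form and recruit effectors to a given membrane. Their 11 listed members ranged from 0.552 to 2.33, with a median of 0.948. The quartiles were 0.784 and 1.072, against 0.738 and 1.065 for all listed genes. Besides Rab30, Rab22a was above 1. This endosomal Rab gene had 195 counts against 217, for a ratio of 1.45 (1.19 to 1.77). The secretory Rab2a, which acts between the ER and the Golgi, had the most input counts of the family. Its counts were 165 and 244 and its ratio 1.09 (0.891 to 1.34). Rab12, Rab7 of late endosomes, Rab5c of early endosomes, Rab1 of ER exit and Rab14 had intervals that included 1, with ratios from 0.875 to 1.05. In 3 Rab genes the interval lay below 1. Rab6a, a GTPase of retrograde Golgi traffic, counted 54 and 153, at a ratio of 0.570 (0.410 to 0.782). Rab43 had 39 HP1 alpha and 114 input counts, which gave 0.552 (0.374 to 0.801), and Rab8a, which acts in exocytosis, had 0.694 (0.486 to 0.978). With 54, 39 and 49 HP1 alpha counts, Rab6a, Rab43 and Rab8a could be listed only with ratios below 1. The median of the family turned to 1.09 with TMM factors, Rab2a then lay above 1, and of these 3 genes Rab6a and Rab43 kept an interval below 1.

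Regulators and effectors of the Rabs formed the largest group, with 17 genes and a median ratio of 0.872. DENN domain proteins load Rabs with GTP, and most TBC domain proteins make them hydrolyse it. Dennd1a, an activator of Rab35, had the highest ratio, with 385 and 447 counts and 1.39 (1.21 to 1.60). It was the only one of the 17 above 1 by its interval, with Rab11fip3 joining it under TMM scaling. Rab11fip3, an effector of Rab11 on recycling endosomes, had 154 counts against 227, for a ratio of 1.10 (0.887 to 1.35). The 8 Tbc1d genes ranged from 0.679 for Tbc1d20 to 1.16 for Tbc1d14, and 3 of them had intervals below 1 (Tbc1d9b, Tbc1d20 and Tbc1d31), of which Tbc1d31 alone kept one with TMM factors. Rab3gap1 and Rab3gap2 encode the subunits of 1 complex. They had ratios of 0.769 (0.556 to 1.05) and 0.637 (0.497 to 0.810). Rab3gap2 had 95 and 241 counts, and it overlaps the listed gene Iars2 (ratio 0.587) by 115 bases.

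Close relatives in this group were compared in 3 pairs. Dennd5a counted 163 and 273, at a ratio of 0.964 (0.789 to 1.17), which is 1.99 times that of Dennd5b (1.25 to 3.24). Dennd5b could be listed only with a ratio below 1, so this difference was in part set by the listing. Tbc1d9 had 1.30 times the ratio of Tbc1d9b (0.849 to 1.99), and Rab3gap1 had 1.21 times that of Rab3gap2 (0.802 to 1.81). These factors do not depend on the scaling of the libraries, because both genes share it. Their intervals are exact conditional ones and cover counting error alone. In all, 19 such pairs were compared, chosen with the values known.

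The Arf branch, which starts the assembly of COPI and clathrin coats at the Golgi, had 7 genes with a median ratio of 0.736. The interval lay below 1 for 4 of the 7 (57.1%, against 32.6% of all listed genes), namely Arf4, Arf5, Arfgap1 and Arfgef1. Arf4 had 116 against 257 counts and 0.729 (0.580 to 0.911), and Arf5 had 47 against 108 and 0.703 (0.488 to 0.999). Arfgap1 had 61 against 135 and 0.730 (0.530 to 0.994). Arf5 and Arfgap1 could be listed only with ratios below 1. Arf3 had the most counts, 200 and 365, and a ratio of 0.885 (0.741 to 1.05), while Arf1 had 78 HP1 alpha and 123 input counts, which gave 1.02 (0.761 to 1.37). The nucleotide exchange factors Arfgef1 and Arfgef2 work in a pair at the trans-Golgi. Arfgef2 had 138 counts against 203, for a ratio of 1.10 (0.878 to 1.37), and Arfgef1 counted 103 and 226, at a ratio of 0.736 (0.577 to 0.933). The ratio of Arfgef2 was 1.49 times that of Arfgef1 (1.07 to 2.08). Arfgef2 spans 92.6 kb and Arfgef1 spans 95.2 kb. Under TMM scaling 0 of the 7 genes kept an interval below 1, and Arfgef2 lay above it.

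All 9 genes of the COPI and COPII coats had ratios below 1, from 0.630 to 0.907, with a median of 0.817. Ratios above 1 were held by 30.9% of all listed genes, whose median was 0.865. The interval lay below 1 for 4 of the 9 (44.4%), against 32.6% of all listed genes. Sec23a and Sec13, with 46 and 51 HP1 alpha counts, could be listed only with ratios below 1. COPII carries cargo out of the ER. Its inner coat gene Sec23a had 46 HP1 alpha and 118 input counts, which gave 0.630 (0.438 to 0.892), and its outer coat gene Sec31a had 209 counts against 455, for a ratio of 0.742 (0.627 to 0.876). Sec24a and Sec24b, cargo adaptors of the same coat, had 0.865 and 0.907, which differed by less than counting error. COPI returns proteins to the ER. Copa, with the highest counts of the group at 296 and 536, had a ratio of 0.892 (0.771 to 1.03), Copg1 had 0.827 (0.692 to 0.985) and Copb2 had 0.696 (0.541 to 0.891). Copa overlaps the listed gene Ncstn by 261 bases. With TMM factors 0 of these 9 genes had an interval on either side of 1, and 2 had ratios above 1.

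The 7 clathrin and adaptor genes likewise all had ratios below 1, from 0.679 to 0.946, with a median of 0.761. The interval lay below 1 for 4 of them (57.1%), against 32.6% of all listed genes. Of all listed genes, 30.9% had ratios above 1. Cltc, the clathrin heavy chain, had 427 HP1 alpha and 729 input counts and a ratio of 0.946 (0.837 to 1.07). Clta, a light chain, counted 95 and 226, at a ratio of 0.679 (0.528 to 0.866). Of the AP-2 subunits, which link clathrin to the plasma membrane, Ap2b1 had 156 HP1 alpha and 351 input counts, which gave 0.718 (0.591 to 0.869), and Ap2a1 had 92 counts against 168, for a ratio of 0.884 (0.678 to 1.15). The ratio of Ap2a1 was 1.23 times that of Ap2b1 (0.885 to 1.71). The 3 AP-1 subunits, which act at the Golgi, had 0.880 for Ap1m1, 0.761 for Ap1g1 and 0.733 for Ap1b1. Ap1m1, with 61 HP1 alpha counts, could be listed only with a ratio below 1. Under TMM scaling Clta and Ap2b1 kept intervals below 1, and 3 of the 7 had ratios above 1.

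Sorting nexins and Ehd proteins shape and sort endosomal membrane. The 12 genes of both families had a median of 1.03, and 6 of the 9 sorting nexins had ratios above 1. Of all listed genes, 30.9% had ratios above 1. Among these 6 nexins, Snx7, Snx10, Snx12 and Snx25 had intervals that included 1. Snx30, another BAR domain nexin, had 169 counts in each library and a ratio of 1.61 (1.30 to 2.01). Snx7, its close relative, had 79 and 120 counts and 1.06 (0.790 to 1.42), so that Snx30 had 1.52 times its ratio (1.05 to 2.20). Snx1 can form a dimer with Snx5 on endosomal tubules. It counted 70 and 129, at a ratio of 0.876 (0.646 to 1.18), which is 1.78 times that of Snx5 (1.22 to 2.58). The sum over the 12 genes gave a ratio of 1.07 (1.01 to 1.15), and without Snx29 it was 0.943 (0.878 to 1.01). With TMM factors Snx12 and Snx25 lay above 1 beside Snx29 and Snx30. The membrane-shaping Ehd1, Ehd2 and Ehd4 had 0.821, 0.993 and 0.874, each with an interval that included 1.

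Only 4 Vps genes were listed. Vps8 encodes a subunit of CORVET, a tether of early endosomes. It had 157 HP1 alpha and 170 input counts, which gave 1.49 (1.19 to 1.86). Vps13d, a lipid transfer protein gene, had 220 counts against 334, for a ratio of 1.06 (0.893 to 1.26). Vps53 and Vps54, 2 subunits of the GARP tether that receives endosomal vesicles at the Golgi, had 0.995 (0.750 to 1.31) and 0.874 (0.677 to 1.12). Vps54 shares 8 bases with the listed gene Ugp2. Vps8 was the only one of the 4 with an interval above 1, and Vps13d joined it with TMM factors.

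Of the 9 genes of SNAREs and syntaxin-binding proteins, 1 interval lay above 1 (11.1%) and 2 below (22.2%). The shares of all listed genes were 15.4% and 32.6%. Among 4 syntaxins, Stx8 of late endosomes counted 162 and 172, at a ratio of 1.52 (1.22 to 1.90). Stx6 had 0.843 (0.606 to 1.16). Stx5a, the Golgi syntaxin, and Stx12, which acts on recycling endosomes, had intervals below 1. Stx12 had 61 against 157 counts and 0.627 (0.459 to 0.848), and Stx5a had 65 against 157 and 0.669 (0.493 to 0.898). The ratio of Stx8 was 2.42 times that of Stx12 (1.66 to 3.56) and 1.80 times that of Stx6 (1.22 to 2.69). Stx12 and Stx6, with 61 and 60 HP1 alpha counts, could be listed only with ratios below 1. Among the genes of syntaxin-binding proteins, Stxbp4 had 85 and 102 counts and 1.35 (0.997 to 1.81), and Stxbp5 had 1.09 (0.911 to 1.30). With TMM factors Stxbp4 and Stxbp5 lay above 1, and of the syntaxins below 1 only Stx12 did so still.

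In the tethers, 2 exocyst genes stood apart from the rest. The exocyst holds secretory vesicles at the plasma membrane. Exoc4 had the highest counts of all members in both libraries, 750 and 810, and a ratio of 1.495 (1.35 to 1.65). Exoc6b had 484 HP1 alpha and 410 input counts, which gave 1.91 (1.67 to 2.18), which is 1.27 times that of Exoc4 (1.08 to 1.51). The other exocyst subunit genes were lower, with 0.892 (0.682 to 1.16) for Exoc2, 0.919 (0.681 to 1.23) for Exoc5 and 0.768 (0.554 to 1.06) for Exoc7. The ratio of Exoc4 was 1.68 times that of Exoc2 (1.26 to 2.24). Subunits of 1 complex thus did not share 1 ratio, but their genes differ in span. Exoc4 and Exoc6b span 725 and 452 kb, against 185 kb for Exoc2, 54.7 kb for Exoc5 and 18.8 kb for Exoc7. Exoc7, with 59 HP1 alpha counts, could be listed only with a ratio below 1. All 3 golgins, the long coiled-coil tethers of the Golgi, had intervals below 1, with 0.742 for Golgb1, 0.741 for Golga2 and 0.661 (0.502 to 0.863) for Golga3. The share of all listed genes with intervals below 1 was 32.6%, and Golga2 and Golga3 were listed through their input count alone. Golga3 had 79 and 193 counts, and it alone of the golgins kept an interval below 1 with TMM factors. The sum over the 10 tether genes gave a ratio of 1.18 (1.11 to 1.25), while the median gene had 0.762. Without Exoc4 the sum gave 1.03 (0.959 to 1.12), and without Exoc4 and Exoc6b it gave 0.767 (0.697 to 0.844).

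Of the remaining 6 members, Vapb was described above. Sec14l1, a gene of a SEC14-like lipid-binding protein, had 0.805 (0.650 to 0.992), and its interval included 1 with TMM factors. Genes of the translocon, through which secretory proteins enter the ER, had ratios below 1. Sec61a1, the channel subunit, had 168 against 378 counts and 0.718 (0.595 to 0.863), and its relative Sec61a2 had 50 against 130 and 0.621 (0.439 to 0.867). The ratio of Sec61a1 was 1.16 times that of Sec61a2 (0.785 to 1.72). Sec63 had 0.711 (0.575 to 0.875) and Sec62 had 0.818 (0.613 to 1.09). Both Sec61 genes kept an interval below 1 with TMM factors, and Sec63 did not. Sec61a2, with 50 HP1 alpha counts, could be listed only with a ratio below 1.

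**Figure D2:**
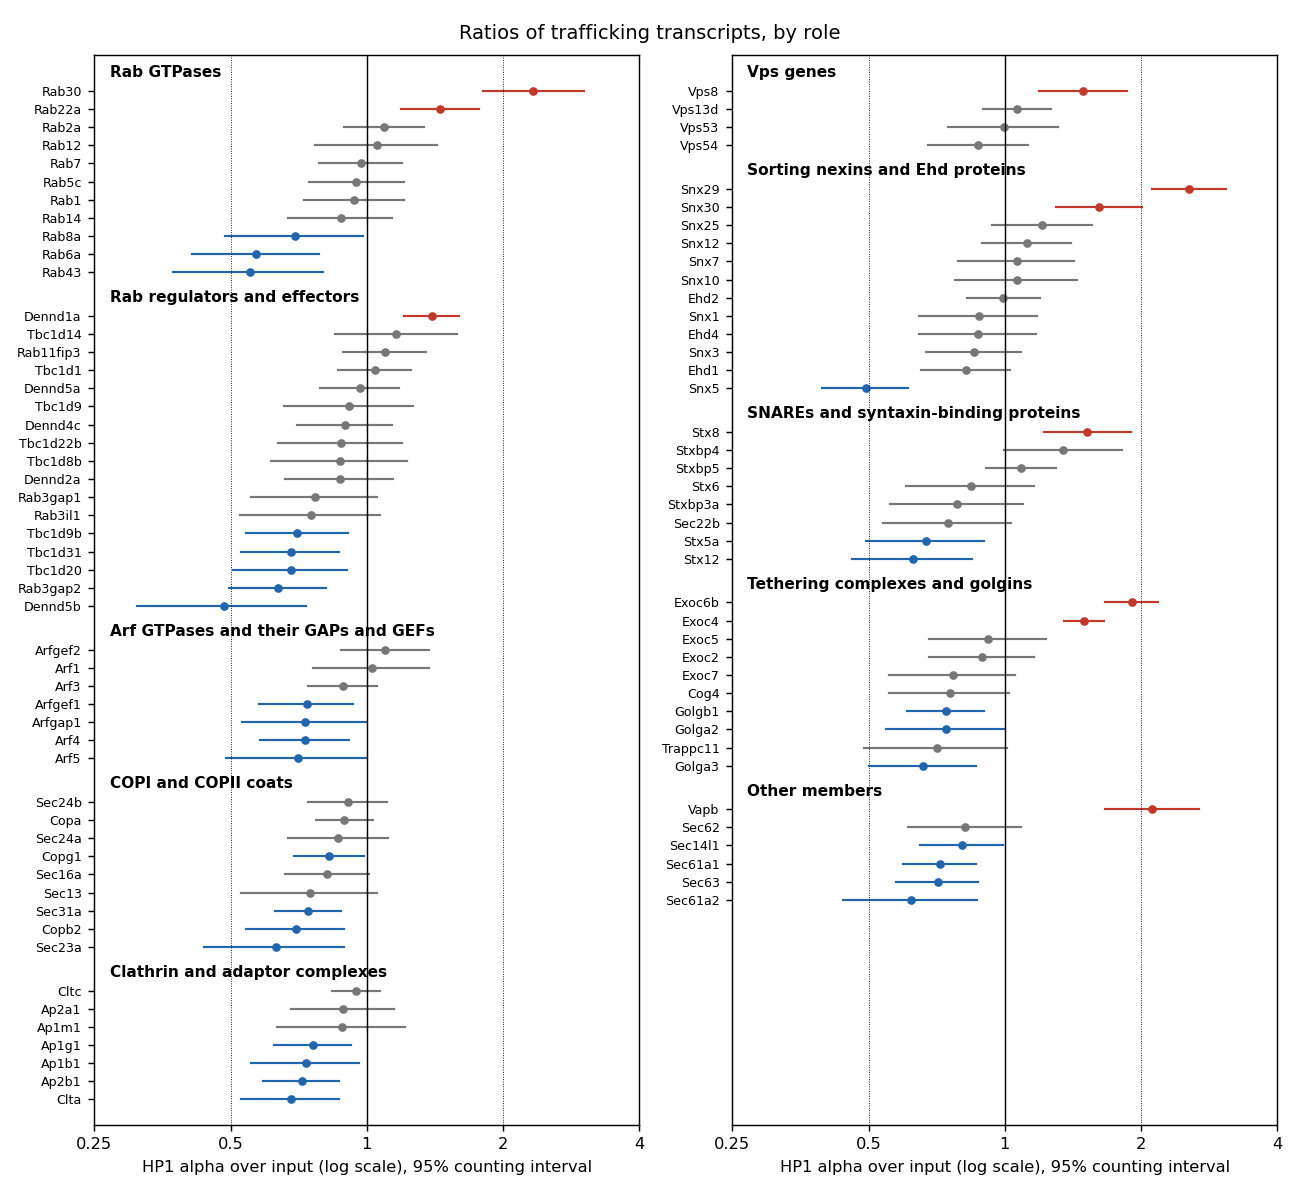
Ratio of HP1 alpha over input (log scale) for the members, except 1 that is left out, grouped by role, with horizontal bars for 95% counting intervals. Red marks intervals above 1, blue marks intervals below 1 and grey marks intervals that include 1. Both coat groups lie wholly at ratios under 1, where most listed genes lie, whereas Rab GTPases and sorting nexins range from well below to well above it.

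The ratio of the members went with the length of their genes. A unique position was found for 90 of the 92 by symbol. Rab1 and Stxbp3a had none. Span here means first to last base, introns included, in RefSeq. Across the 90 genes Spearman's rho between ratio and span was 0.55 and Pearson's r on log scales was 0.57. Over the 3088 listed genes with a position rho was 0.61. Both are descriptions across genes of 1 pair of libraries, and the genes are not replicates. Among the 42 members with at least 100 counts in both libraries, rho was 0.60.

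By span, the median ratio was 0.730 for the 21 members of up to 25 kb, 0.822 for the 22 between 25 and 50 kb, and 0.874 for the 28 between 50 and 100 kb. It was 1.02 for the 12 between 100 and 200 kb and 1.495 for the 7 longer ones. The medians over all listed genes in the same bins were 0.750, 0.811, 0.890, 1.07 and 1.40. The members thus moved with span much as other genes did. All 7 members longer than 200 kb had ratios above 1 (Snx29, Exoc6b, Stx8, Exoc4, Vps8, Dennd1a and Vps13d), and 6 of them had intervals above 1. Of all listed genes of that length, 90.9% had ratios above 1 and 70.7% had intervals above 1. Median span was 231 kb for the 10 members with intervals above 1 and 32.0 kb for the 30 with intervals below 1.

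Against genes of like span the picture changed. Each gene's ratio was divided by the median ratio of the 200 listed genes nearest to it in span. The median of the members was then 0.980, with 7 of 90 intervals above 1 and 11 below, where the shares of all genes were 15.3% and 11.8%. At 2-fold, 2 members were higher and 1 was lower, against 1.23% and 0.13% of all genes. Vapb led with 2.505 (1.97 to 3.18), followed by Rab30 with 2.36 (1.83 to 3.06). The long genes that had led before were closer to their peers. Snx29 had 1.79 (1.48 to 2.16), Exoc6b had 1.33 (1.16 to 1.52), Exoc4 had 1.04 and Dennd1a had 0.962. The last 2 had intervals that included 1. Stx8 had 1.15, and 0 of the 8 genes of SNAREs and syntaxin-binding proteins with a position had an interval on either side of 1. Of the other exocyst genes, Exoc5 had 1.09, Exoc7 had 0.982 and Exoc2 had 0.704. Rab22a and Snx30 stood higher than before, at 1.75 (1.44 to 2.14) and 1.65 (1.32 to 2.05), and Ehd2 had 1.26 (1.04 to 1.51).

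The low members also sorted differently by this measure. Dennd5b, at 114 kb, had 0.483 (0.310 to 0.733) and was the only member more than 2-fold below genes of its span. Snx5 had 0.623 (0.499 to 0.771). Exoc2, a gene of 185 kb, had 0.704 (0.538 to 0.917), and Vps13d, at 324 kb, had 0.754 (0.633 to 0.897). Rab3gap2, Rab6a, Ap2b1, Arfgef1, Ap1g1, Sec63 and Tbc1d1 made up the other intervals below 1, from 0.713 to 0.812. The COPI and COPII genes had a median of 1.00 with 0 intervals on either side. Those of clathrin and its adaptors had 0.850, with 2 intervals below 1. The golgins Golgb1, Golga2 and Golga3 had 0.858, 0.949 and 0.785, none with an interval below 1. Sec61a1 had 0.951 and Sec61a2 had 0.776, neither with an interval below 1, unlike Sec63.

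**Figure D3:**
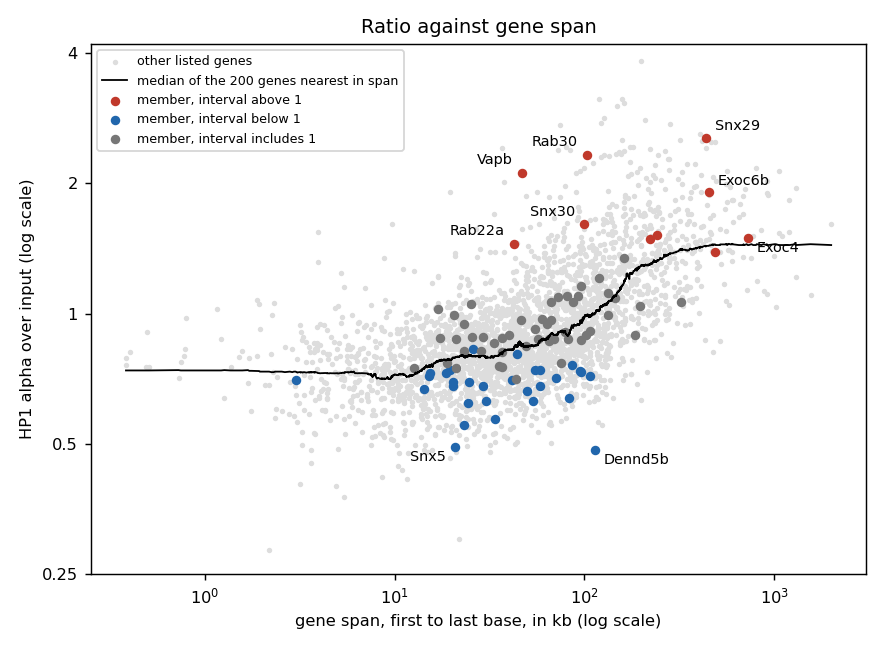
Ratio of HP1 alpha over input against gene span in kb, both on log scales, for the 90 members with a position (coloured by interval) and the other listed genes (grey). The black line is the median ratio of the 200 genes nearest in span. Vapb, Rab30, Rab22a and Snx30 lie far above the line for their span and Dennd5b far below it, while Exoc4 and Dennd1a lie close to it.

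Vapb and Rab22a, which both lay above genes of like span, are neighbours. Rab22a is on chromosome 2 (173659836 to 173702186), and Vapb begins 35.4 kb further on. The pseudogene Ppp4r1l-ps, on the other side of Rab22a (173579320 to 173659539), had 110 counts against 73, for a ratio of 2.43 (1.79 to 3.32). With 73 input counts it could enter the table only at a ratio of at least 2.21, so its value was set in part by the listing. Further out, Pmepa1 had 1.39 (1.17 to 1.67), and Gnas, about 500 kb beyond Vapb, had 0.834 (0.717 to 0.968). The listed genes within 500 kb of Snx29, Rab30, Snx5 and Dennd5b had ratios between 0.625 and 1.14, and the intervals of Ipo8 and of its neighbour Dennd5b overlap. This neighbourhood was chosen after the values were seen.

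**Figure D4:**
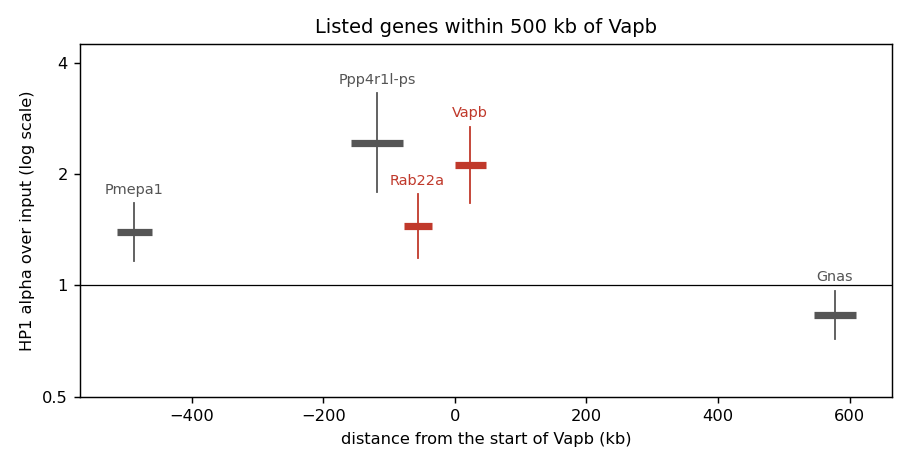
Ratio of HP1 alpha over input (log scale) for the 5 listed genes within 500 kb of Vapb, by distance from its start in kb. Thick bars span each gene, thin lines are 95% counting intervals, and members are red. Rab22a and Vapb lie above 1, as does Ppp4r1l-ps, which could be listed only there, and Gnas lies below it.

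Other genes of the pathway were taken from lists of trafficking genes outside the symbol rule. Of 194 genes, 76 were listed, with a median ratio of 0.893, 0 called higher, 0 called lower, 13 intervals above 1 (17.1%) and 22 below (28.9%), near the 15.4% and 32.6% of all listed genes. With TMM factors 3 were called higher (Arl15, Agap1 and Stam), 0 lower, and the intervals were 21 above and 7 below. Of all listed genes, 4.05% were then called higher and 0.287% lower, with 23.3% of intervals above 1 and 13.7% below. The other Arf and Arl genes had 5 of 17 intervals above 1 and 2 below (8 and 0 with TMM). Arl15, an Arf-like GTPase gene, had 318 and 269 counts and 1.91 (1.62 to 2.25), and Agap1, an Arf GTPase-activating gene, had 605 and 549 and 1.78 (1.58 to 2.001). These are long genes, at 363 and 440 kb. In the ESCRT and endosome list of 20 genes the median ratio was 0.889, with 4 intervals above 1 and 6 below (5 and 2 with TMM). Stam, a ubiquitin-binding gene of the ESCRT pathway, had 145 and 126 counts and 1.86 (1.45 to 2.38) at a span of 74.4 kb, while its relative Stam2 had 51 and 126 and 0.654 (0.463 to 0.912), an interval that included 1 with TMM. In the ER exit and Golgi list 7 of 13 genes had intervals below 1 (2 with TMM), among them the cargo receptor genes Surf4 with 0.576 and Lman1 with 0.616, and Ergic1 went the other way with 1.502 (1.29 to 1.75). Of 7 listed sorting receptors and cargo genes, 5 had intervals below 1 (3 with TMM), including Tfrc, the transferrin receptor gene, with 0.610 (0.428 to 0.857). Among 14 genes of endocytosis 1 interval lay above 1 (Aak1) and 1 below (Flot2), and among 5 SNARE and fusion genes 1 lay above (Snap47) and 1 below (Ykt6). With TMM neither Flot2 nor Ykt6 lay below 1. Stam2, Tfrc and Ykt6, with 51, 48 and 48 HP1 alpha counts, could be listed only with ratios below 1.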

How the data were processed

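The authors deposited read counts per gene for both libraries in 1 table, with a fold (a ratio). It equals 1.66 times the ratio of the counts throughout, and its header speaks of normalization to total mapped reads. GRCm38, featureCounts and STAR 2.6.0c are named by the submitters' processing notes. The sources used here do not state strand, exon or whole-gene counting, or duplicate removal. The columns are headed MEF where the labels say NIH3T3, and the control is headed mock where its label says input. The columns were assigned by the words HP1 and mock, and the difference in wording was not resolved.

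Members were found by a symbol pattern. Ratios used each library's listed total, log2 ratios a pseudocount of 0.5, and intervals Clopper-Pearson bounds at 95% (scipy 1.17.1). The code was tested on simulated data. Counting intervals ignore PCR copies. Spans came from RefSeq (GRCm38.p6).

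The members, role groups and lists were chosen with earlier results of these data known. Named are called members, the 8 highest and 8 lowest by interval bound, the most counted member per role, the Rab5, Rab6, Rab11 and Ap2 families and examples chosen after their values were seen. One member, counted in the totals, is not reported here. Alternatives were TMM (edgeR 4.0.16), DESeq2 1.42.0 size factors, the authors' constant, other minimums, folds and pseudocounts, and genes of like span.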

Additional observations from a re-analysis of the deposited data

How the results depend on the processing

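No paired analysis was possible because there is a single library on either side. Of the 92 members, 3 were called higher and 2 lower, 10 intervals lay above 1 and 30 below, the median log2 ratio was -0.19 and the ratio of summed counts was 0.962. With TMM factors the lower calls were 0, the intervals 18 above and 12 below, the median 0.0065 and the summed ratio 1.10. With DESeq2 size factors these were 0, 18, 8, 0.018 and 1.11, so the signs of the median and of the summed ratio turned. The authors' constant gave 0 lower calls, a median of -0.15 and a summed ratio of 0.990 (0.9895). Without the 10 most abundant genes the median was -0.18. With at least 100 counts in both libraries, 43 members were left, with 1 lower call, 11 intervals below 1, a median of -0.051 and a summed ratio of 1.06 (1.055), where 26.9% of all genes lay above 1 and 27.1% below. At 400 counts over both libraries, 25 were left, with 1 higher and 1 lower call, 5 intervals above 1 and 9 below, a median of -0.079 and a summed ratio of 1.04. These filters leave fewer members to call. Relative to genes of like span there was 1 lower call, with 11 intervals below 1 and a median of -0.024. At 1.5-fold 6 were higher and 9 lower (7.63% and 12.3% of all genes), and at 4-fold 0 and 0 (0 genes). A pseudocount of 5 gave 0 lower calls and a median of -0.16. TMM for the wider pathway lists was also added after seeing the data. Other alternatives added then gave a summed ratio of 0.939 without Exoc4 and 0.917 without Exoc4 and Exoc6b. The 71 members under 100 kb had 1 higher and 1 lower call, 3 intervals above 1, a median of -0.28 and a summed ratio of 0.849. Among role groups, the median log2 ratio of the Rab GTPases turned to 0.12 with TMM, 0.14 with DESeq2 and 0.22 relative to genes of like span. That of the Rab regulators turned to 0.0060 and 0.018 with TMM and DESeq2. Relative to genes of like span that of the coats turned to 0.0060 and that of the Vps genes to -0.064. Scaling adds 1 constant to every log2 ratio, and the cause of the other shifts was not tested. Members with the fewest HP1 alpha counts have the widest intervals, and 2-fold differences there are the least certain. Leaving out the 3 members that overlap a listed gene kept 3 higher and 2 lower calls.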
